A study of Mus musculus with 5 samples.

Results

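Chromatin remodeller genes were examined for binding of KLF5, a Krüppel-like factor that binds GC-rich DNA through zinc fingers, in mouse embryonic stem (ES) cells. The genes were chosen by name alone: all protein-coding genes of the RefSeq GRCm38 table whose symbol starts with Smarc or Ino80, or reads Arid or Chd followed by a digit. This gave 38 of 21883 protein-coding genes, with 13 Smarc, 10 Arid, 10 Chd and 5 Ino80 genes. A gene was counted as having a peak where the summit, the highest point of the peak, lay inside the gene or within 10 kb of either end.

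Binding was measured by chromatin immunoprecipitation and sequencing (ChIP-seq). The cells, wild-type ES cells derived from C57B6/J mice, overexpressed KLF5 with a V5 epitope tag, a short peptide recognised by the anti-V5 antibody. Controls were a normal mouse IgG immunoprecipitate and input DNA of the same cells, and the V5 immunoprecipitate and input of untagged cells labelled ES-D3, an established wild-type mouse ES line. The run name in that control's file header gives another line, JM8.N4, so which line it is remains uncertain. Each group was 1 library, so no value has a replicate check and no p-value is given. The protein was overexpressed, no untagged endogenous KLF5 was measured, and expression of ES cell markers or of the genes themselves was not measured in these files. The 3 immunoprecipitates kept 21.8 M to 24.5 M tags (M, mega) after duplicates were removed, and gave 45378 peaks (V5 in V5-KLF5 cells), 3 peaks (IgG) and 0 peaks (V5 in untagged cells). No control peak lay in the window of any of the 38 genes.

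Chromatin remodellers use the energy of ATP to slide, evict or exchange nucleosomes, and so set how accessible DNA is. SWI/SNF (BAF) complexes carry SMARCA4 (BRG1) or SMARCA2 (BRM) as ATPase. The form of ES cells, called esBAF, is known to contain SMARCA4, SMARCC1, SMARCD1 and ARID1A, and to be needed for self-renewal. ISWI enzymes space nucleosomes, CHD enzymes have chromodomains and include the NuRD helicases, and INO80 moves nucleosomes and acts on those that hold H2A.Z. The symbol rule also takes in ARID genes that are no remodeller subunits, described last.

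Nearly all of the genes had a peak. A V5-KLF5 summit was present at 36 of 38 (94.7%, exact 95% interval 82.3 to 99.4), against 70.5% of all protein-coding genes. Intervals here cover counting error only. All 10 Arid and all 5 Ino80 genes had one, as did 12 of 13 Smarc and 9 of 10 Chd genes. Smarca5 and Chd1l had none. At least 2 summits were found at 32 genes, and 4 genes had 1. The median number of summits was 3 over the 38 genes. It was 2 over all protein-coding genes and 3 over those in the longest quintile of gene length.

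Length must be read beside this count, because a long gene offers a longer window. The 38 genes had a median length of 63.2 kb, against 17.2 kb over all protein-coding genes. From the shortest to the longest length quintile of protein-coding genes, the share with a summit was 39.0%, 70.5%, 75.3%, 80.5% and 87.3%. Of the 20 remodeller genes in the longest quintile, 20 had a summit, and of the 10 in the next quintile 8 had one. All 8 in the 3 shorter quintiles had one. The gap to the background was thus smaller within the longest quintile than over all genes. In the next quintile, 8 of 10 against 80.5% left no gap.

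Strong summits were set at a fold enrichment of at least 10, where fold enrichment is the authors' ratio of the pileup at the summit to the input background. At least 1 strong summit lay at 16 of 38 genes (42.1%, interval 26.3 to 59.2), against 22.2% of protein-coding genes. In the longest quintile this held for 9 of 20 remodeller genes against 30.7% of protein-coding genes, and in the next quintile for 6 of 10 against 25.4%. Of the shorter genes 1 had one, Smarce1. The strongest summit per gene had a median fold enrichment of 8.77 over the 36 genes (interval of the median 6.83 to 12.2), against 7.71 over all protein-coding genes with a summit. It ranged from 3.52 at Chd6 to 22.0 at Arid5b. For summits within 1 kb of a start alone, the medians were 6.24 and 6.10, and 6 of 38 genes had a strong one, against 9.10% of protein-coding genes. For genes with no listed start, either gene end was taken in its place. This was so at Arid3a and Smarce1, which were among the 6.

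The single summits were of ordinary strength. The genes held 145 distinct summits with a median fold enrichment of 5.12 (quartiles 4.12 and 7.08), against 5.18 for all summits counted at any protein-coding gene. Of the 145, 20 were strong (13.8%, interval 8.63 to 20.5), against 12.8% of those summits. No summit fell in the windows of 2 of these genes at once, but 55 of the 145 also lay in the window of another protein-coding gene.

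**Figure D1:**
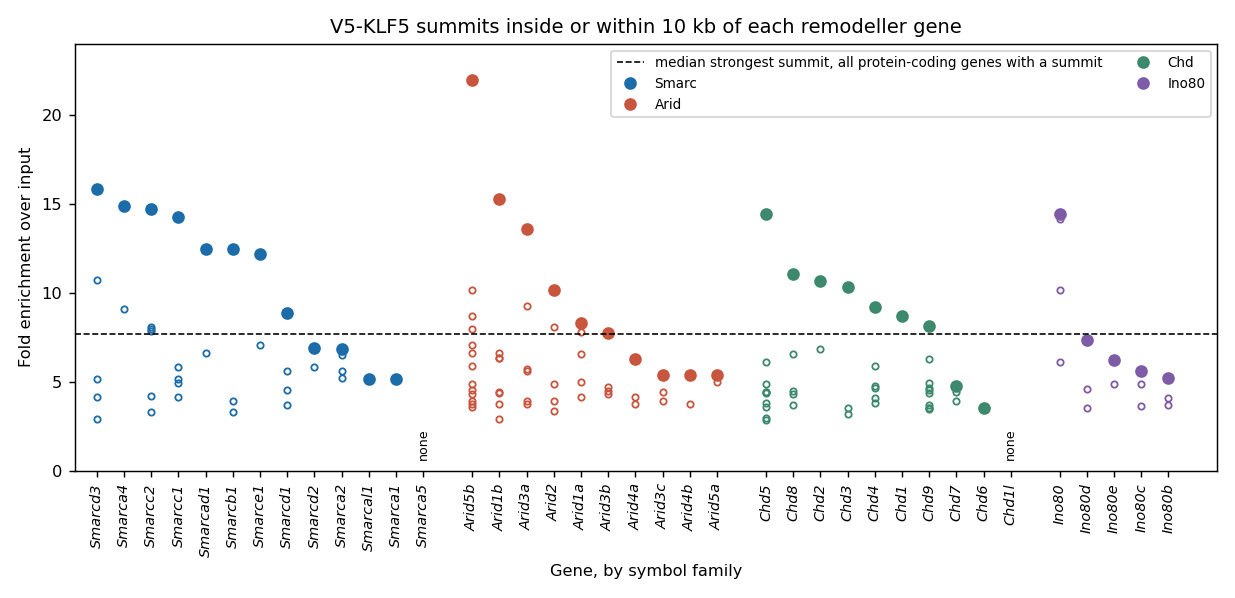
Fold enrichment over input (vertical axis) of every V5-KLF5 summit inside or within 10 kb of each gene, by symbol family; filled points are the strongest summit of a gene, open points its others, and the dashed line is the median strongest summit of all protein-coding genes with a summit, 7.71. The filled points of 22 genes lie above the line, Arid5b is highest at 22.0, and Smarca5 and Chd1l have no summit.

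SWI/SNF subunit genes carried many of the strong summits. All 12 genes of this group (9 Smarc genes with Arid1a, Arid1b and Arid2) had a summit, and 8 of 12 had a strong one (66.7%, interval 34.9 to 90.1), against 22.2% of protein-coding genes, and 25.4% and 30.7% of those in the 2 longest quintiles. The median strongest fold enrichment was 12.3, against 7.71 over protein-coding genes with a summit. The exceptions below 10 were Smarca2, Smarcd1, Smarcd2 and Arid1a. Smarcc2 and Arid2 reached 10 only at summits nearest to another protein-coding gene.

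The ATPase genes Smarca4 and Smarca2 differed in strength. Smarca4 (chromosome 9, 21616106 to 21704230) had 2 summits. The stronger, in the peak at 21615548 to 21616751, lay 124 bp outside the gene at its start, with a pileup of 60 and a fold enrichment of 14.9 (counting interval 11.4 to 19.1, from the pileup with the background held fixed). The other lay 2756 bp beyond the 3′ end with 9.10. Smarca2 (chromosome 19, 26605073 to 26778321) had 4 summits, with fold enrichments of 6.83, 6.52, 5.61 and 5.18. Its strongest, with a counting interval of 4.59 to 9.83, lay deep in the gene, 32482 bp from the 3′ end, and the summit at its start had 5.61. The intervals of the strongest summits of the 2 genes do not overlap, and the input background was at its floor of 3.10 at both.

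The core scaffold genes Smarcc1 (BAF155) and Smarcc2 (BAF170) had strongest summits of like height in different places. Smarcc1 had a fold enrichment of 14.2 (10.9 to 18.3) at a summit 67 bp outside its start on chromosome 9. Its other 4 summits, from 4.12 to 5.81, all lay outside the gene, and 3 of them lay nearer to Cspg5. Smarcc2 had 14.7 (11.5 to 18.5) at a summit 3492 bp beyond its 3′ end, in a peak on chromosome 10 at 128493529 to 128494631. That summit stood 74 bp from an end of Myl6b, a myosin light chain gene. At the start of Smarcc2 the only summit within 1 kb, 321 bp outside, had 4.21 (2.59 to 6.53). At the gene start the value was thus higher for Smarcc1, and those intervals do not overlap.

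The 3 Smarcd genes encode alternative BAF60 subunits. Smarcd3 (BAF60C, known from heart and muscle) had the highest Smarc value, 15.9 (12.3 to 20.2). That summit lay 1725 bp outside the gene on its start side, and a second strong summit inside the gene had 10.7. At the start that the RefSeq table lists for Smarcd3, an internal position, the nearest summit had 2.93. Smarcd1 (BAF60A) had 8.86 (6.92 to 11.2) at a summit 109 bp outside its start. That peak had a pileup of 69 on an input background of 6.90, the highest background among the strongest summits and above 6.13, the 95th percentile of all peaks. Smarcd2 (BAF60B) had 6.91 (5.04 to 9.25) at a summit 185 bp outside its start side but nearer to an end of Tcam1, and its other summit stood 67 bp from Psmc5, a proteasome gene.

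The remaining SWI/SNF genes of the Smarc family had their strongest summits close to an end. Smarcb1 (SNF5, a core subunit and tumour suppressor) had 12.4 (9.35 to 16.2) at a summit 432 bp inside its start, and 2 weak summits of 3.90 and 3.31 near Derl3. Smarce1 (BAF57, an HMG-box subunit) had 12.2 (9.78 to 15.0) at a summit 423 bp inside the gene, and 7.08 at a second summit deeper inside. Its pileup was 86, on an input background of 6.13.

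ARID subunits decide which SWI/SNF complex forms, with ARID1A or ARID1B in canonical BAF and ARID2 in PBAF. Arid1a (chromosome 4, 133679008 to 133756769) had 8.28 (5.94 to 11.2) at a summit 137 bp outside its start. A summit 413 bp from its second listed start had 7.82. The other 3 Arid1a summits, from 4.16 to 6.57, lay beyond the 3′ end and nearer to Pigv. Arid1b had 8 summits, all inside its 353 kb and none within 1 kb of its start. The strongest, with 15.3 (12.0 to 19.3), lay 157588 bp from the nearer end, in the peak on chromosome 17 at 5189657 to 5190451. The other 7 ran from 2.90 to 6.59. Arid2 had 5 summits, led by 10.1 (7.58 to 13.3) at 1751 bp and 8.05 at 838 bp outside the gene, both nearer to the predicted gene Gm38469. Arid1a was therefore marked at its starts, and Arid1b only within the gene.

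To show the sequence beneath the strongest start-proximal summits, the 250 bases before the listed start are printed for the 6 genes with the highest strongest summit lying within 1 kb of a start in the RefSeq promoter table (GRCm38.p6, the assembly of mm10). Capitals mark matches to CCNCNCCC on either strand, the GC-rich and CACCC-type core that KLF and SP factors are known to bind. The windows are chr9:21615919-21616168 (plus strand) for Smarca4, chr2:119477688-119477937 (minus) for Ino80, chr9:110131774-110132023 (plus) for Smarcc1, chr10:75921615-75921864 (minus) for Smarcb1, chr15:99702037-99702286 (plus) for Smarcd1 and chr4:133756770-133757019 (minus) for Arid1a.
Smarca4: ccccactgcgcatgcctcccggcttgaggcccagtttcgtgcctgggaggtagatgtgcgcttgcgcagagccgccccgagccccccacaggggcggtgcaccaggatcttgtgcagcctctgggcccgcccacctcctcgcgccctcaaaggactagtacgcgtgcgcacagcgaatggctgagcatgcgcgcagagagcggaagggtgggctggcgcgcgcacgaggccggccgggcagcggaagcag
Ino80: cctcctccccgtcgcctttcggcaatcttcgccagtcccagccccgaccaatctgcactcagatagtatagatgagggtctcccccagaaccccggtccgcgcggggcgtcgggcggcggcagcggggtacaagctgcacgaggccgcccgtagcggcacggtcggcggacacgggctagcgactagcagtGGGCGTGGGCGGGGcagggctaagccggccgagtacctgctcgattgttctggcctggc
Smarcc1: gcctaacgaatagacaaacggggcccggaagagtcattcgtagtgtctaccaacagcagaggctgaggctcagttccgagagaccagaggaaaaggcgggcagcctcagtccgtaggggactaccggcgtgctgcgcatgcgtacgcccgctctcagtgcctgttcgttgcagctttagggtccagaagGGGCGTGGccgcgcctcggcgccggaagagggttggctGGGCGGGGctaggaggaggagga
Smarcb1: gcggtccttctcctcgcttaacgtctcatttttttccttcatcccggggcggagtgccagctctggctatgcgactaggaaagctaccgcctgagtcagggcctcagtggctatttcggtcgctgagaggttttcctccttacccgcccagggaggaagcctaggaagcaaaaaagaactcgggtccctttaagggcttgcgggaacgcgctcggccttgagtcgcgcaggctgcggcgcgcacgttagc
Smarcd1: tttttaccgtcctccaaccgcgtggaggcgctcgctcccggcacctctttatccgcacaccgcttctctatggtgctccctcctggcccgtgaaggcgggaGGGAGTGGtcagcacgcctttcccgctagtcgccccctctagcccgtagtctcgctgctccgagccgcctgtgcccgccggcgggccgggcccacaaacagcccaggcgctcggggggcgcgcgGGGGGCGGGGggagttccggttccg
Arid1a: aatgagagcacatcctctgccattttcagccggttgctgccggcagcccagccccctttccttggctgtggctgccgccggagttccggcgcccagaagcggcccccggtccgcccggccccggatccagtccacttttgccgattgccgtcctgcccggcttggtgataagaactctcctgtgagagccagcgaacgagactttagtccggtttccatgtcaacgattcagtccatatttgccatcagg

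The summit lay inside the printed stretch at Smarca4, Smarcc1, Smarcd1 and Arid1a. At Ino80 and Smarcb1 it lay 596 and 432 bp downstream of the start. Smarcd1 held 3 matches, and Smarcc1 and Ino80 held 2 each. Smarca4, Smarcb1 and Arid1a held none in these 250 bases, which says only that these letters are not in this stretch. Among the 4 stretches that hold their summit, those with a match had fold enrichments of 8.86 and 14.2, and those without had 8.28 and 14.9.

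The promoter table, whose windows run from 250 bases before to 50 after a start, held 35 windows for 28 of the 38 genes. It had none for Arid2, Arid3a, Arid4a, Chd1, Chd2, Chd3, Chd7, Ino80c, Ino80d and Smarce1. The motif occurred in 26 of 35 windows (74.3%, interval 56.7 to 87.5), against 56.6% of 21262 windows of protein-coding genes. Median GC content moved with this, at 65.7% in the remodeller windows and 56.3% in all, and its part was not tested. Over all protein-coding windows, 80.8% of those holding a summit had the motif and 47.9% of those without. Among the remodeller windows it was in 8 of 12 that held a summit and in 18 of 23 that did not, so the share was no higher in the windows with a summit. With the stricter letters CCCCGCCC or CCCCACCC the share was 25.7%, against 30.7% of all windows. Within 1 kb of a listed start, 21 of the 28 genes had a summit, against 51.7% of protein-coding genes with a listed start. That background share was 63.7% in the next-longest and 64.6% in the longest quintile of gene length.

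The 2 ISWI ATPase genes held 1 summit between them. Smarca5 (SNF2H, the main ISWI ATPase of proliferating cells) had no summit, and the nearest one lay 19380 bp from the gene. Smarca1 (SNF2L), on chromosome X, had a single summit of 5.12 (3.23 to 7.78), 754 bp inside its start. On chromosome X 35.0% of protein-coding genes had a summit. The lack of a called peak at Smarca5 means that no signal passed the authors' threshold, not that none was present.

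Among the single ATPases outside these complexes, Smarcad1, which acts on heterochromatin and at DNA ends, had 12.5 (9.42 to 16.2) at a summit 18704 bp inside the gene, and 6.62 at a second one. Smarcal1, an annealing helicase of stalled replication forks, had 1 summit, of 5.17, 88 bp from its listed start. Chd1l (ALC1), which is activated by poly(ADP-ribose), had none, and the nearest lay 18534 bp away.

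**Figure D2:**
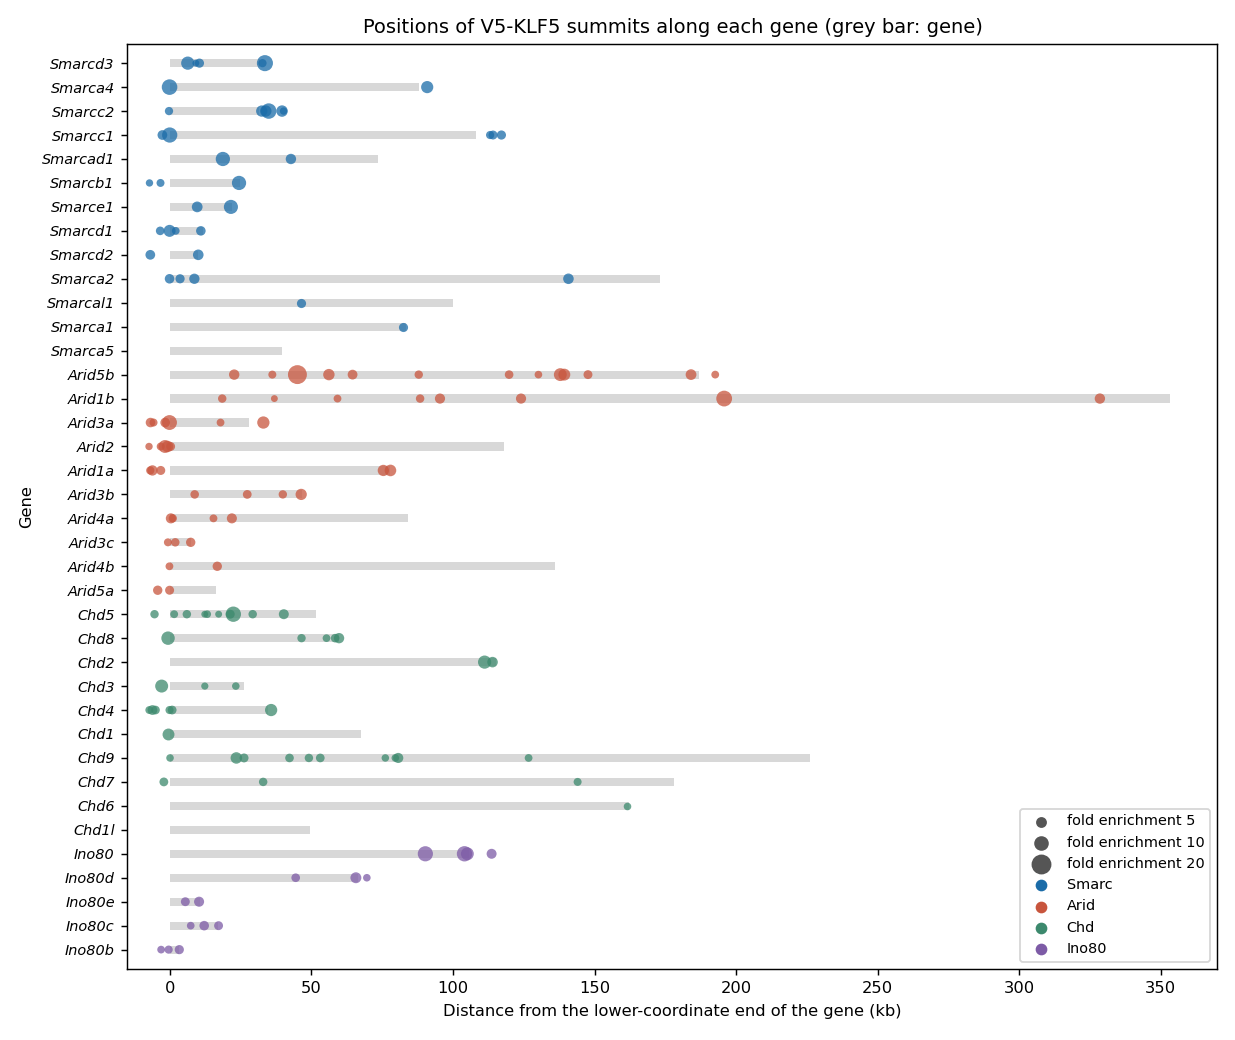
Position of each V5-KLF5 summit (points, area in proportion to fold enrichment) along the 38 genes, drawn as grey bars from their lower-coordinate end (horizontal axis, kb). Summits of Arid1b, Arid5b, Chd5 and Chd9 are spread along the gene, whereas those of Smarca4, Smarcc1 and Arid2 lie at or beyond the ends.

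CHD genes ranged from among the most to the least marked. Chd1, which binds H3K4me3 and keeps ES cell chromatin open, had 1 summit, of 8.69 (6.29 to 11.7), 582 bp outside an end on chromosome 17. Its relative Chd2 had 10.7 (8.17 to 13.7) and 6.84, at summits 3940 and 1138 bp inside the nearer end. The intervals of the strongest summits of Chd1 and Chd2 overlap.

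Chd3, Chd4 and Chd5 encode the alternative helicases of NuRD, a complex that also deacetylates histones. Chd4, the main one in ES cells, had 6 summits. Its strongest, 9.21 (6.65 to 12.5), lay 1143 bp beyond the 3′ end and 149 bp from Nop2, a nucleolar gene, and the summits near its start had 4.74 and 4.07. Chd3 had 10.3 (7.71 to 13.6) at a summit 2912 bp outside the gene, and 2 inside it of 3.52 and 3.17. Chd5, a gene known mainly from neurons and testis, had 10 summits in and around its 51.5 kb, 9 of them inside. Its strongest, 14.4 (11.2 to 18.3), lay 22400 bp into the gene in the peak on chromosome 4 at 152360798 to 152361364, and none lay within 1 kb of its listed starts. Summit density at Chd5, 13.98 per 100 kb of window, was the highest of the 38 genes. Ino80b, Smarcd1 and Arid3a were close to it, at 12.8, 12.6 and 12.5. The density was 3.83 over all 38 genes and 3.27 over all protein-coding genes. It was 4.20 over protein-coding genes of the next-longest quintile, which holds Chd5.

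Chd6 to Chd9 form the third CHD subfamily. Chd8, a regulator of WNT targets, had 11.1 (8.20 to 14.6) at a summit 655 bp beyond its 3′ end but 257 bp from Supt16, which encodes a subunit of the histone chaperone FACT. Near its start the value was 6.58. Chd9 had 10 summits, all inside the gene, led by 8.13 (6.19 to 10.5) at 23466 bp from its nearer end, on the start side. Chd7, the gene of CHARGE syndrome, had 3 weak summits, of 4.76, 4.39 and 3.93, in and near its 178 kb. Chd6 had 1, of 3.52 (2.1 to 5.58), in 162 kb. The highest values of Chd6 and Chd7 lay below the lower bound of that Chd8 summit nearer to Supt16. The interval of the Chd8 summit near its start was 4.38 to 9.52. The highest value of Chd7 lay inside it, and that of Chd6 below it.

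In the INO80 family the ATPase gene stood above its accessory subunits. Ino80 (chromosome 2, 119373042 to 119478685) had 4 summits, 3 of them strong: 14.4 (11.2 to 18.4) and 10.1 on either side of its listed start, and 14.2 (10.98 to 17.99) at a summit 15417 bp inside the gene. The fourth, 7983 bp outside, had 6.10. Ino80d had a strongest value of 7.32, Ino80e 6.21, Ino80c 5.61 and Ino80b 5.18. The intervals of the last 3 end below the lower bound of 11.2 at Ino80, and that of Ino80d, 4.98 to 10.4, does too. Each of the 5 genes had a summit within 1 kb of a listed start or, where none is listed, of an end. The summits of Ino80b and Ino80e lay in the windows of close neighbours as well, among them Mogs and Wbp1 for Ino80b, and Hirip3, Doc2a and Taok2 for Ino80e.

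The ARID genes that are not SWI/SNF subunits encode DNA-binding proteins. Arid5b, a coactivator that works with the demethylase PHF2, had the most summits, 13, and the highest value of all 38 genes, 22.0 (17.96 to 26.6). That summit lay 45039 bp from the 3′ end, inside the gene, in a peak on chromosome 10 at 68136424 to 68138079. It stood at the 96.8 percentile of the strongest summits of all protein-coding genes that had one. Its next values were 10.1, 8.69 and 7.97, 12 of its 13 summits lay inside the gene, and none lay within 1 kb of the listed start.

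Arid3a (Bright), a factor of B cells known to act also in trophectoderm, had 13.6 (10.7 to 17.0) at a summit 143 bp outside an end on chromosome 10, and 5 more, of which 4 lay nearer to Kiss1r or Wdr18. Its relative Arid3b had 7.76 (5.45 to 10.8) at its start, and Arid3c had 5.37. The SIN3-associated genes Arid4a and Arid4b had 6.26 and 5.37, and at the start of Arid4b the summit, of 3.72, lay nearer to Ggps1. Arid5a, which encodes a factor that binds DNA and RNA, had 5.37 and 4.97, both outside the gene.

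The strongest summit lay within 1 kb of an end or a listed start of its gene in 20 of 36, deeper inside in 9, and farther outside in 7. Of all 145 summits 45 lay within 1 kb of a start of some protein-coding gene (31.0%, interval 23.6 to 39.2), against 35.8% of all summits counted at protein-coding genes. Both ends stood in for the start of genes with no listed start. Deeper inside a gene lay 84 (57.9%, interval 49.5 to 66.1), against 48.1%. At least 5 summits were found at 12 of 38 genes (31.6%), against 14.3% of protein-coding genes and 28.6% of those in the longest quintile, to which 7 of the 12 belong. Of those 12, Arid3a, Chd4, Chd5, Smarcc2 and Smarcd3 are shorter.

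**Figure D3:**
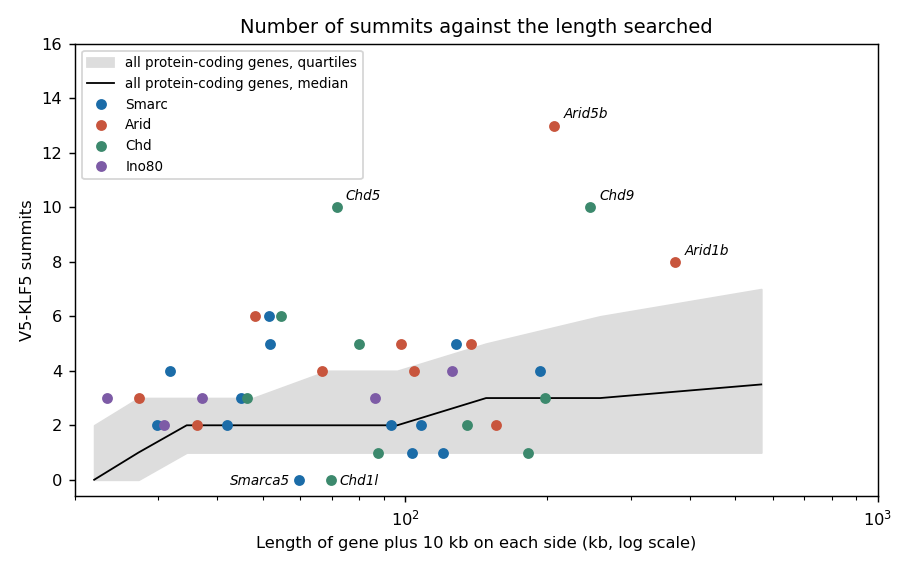
Number of V5-KLF5 summits (vertical axis) against the length searched, the gene plus 10 kb on each side (horizontal log axis, kb), for the 38 genes; the line and the grey band give the median and the quartiles of all protein-coding genes in bins of that length. Genes above the band include Arid5b with 13, Chd5 and Chd9 with 10, Arid1b with 8, and Arid3a, Chd4 and Smarcc2 with 6. Smarca5 and Chd1l at 0 lie below the band.

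For 5 genes the strongest summit lay nearest to another protein-coding gene: Arid2, Chd4, Chd8, Smarcc2 and Smarcd2. With each summit given only to its nearest gene, 35 of 38 genes kept a summit, against 62.3% of protein-coding genes, and 13 had a strong one, against 16.2%. Smarcd2 was then left with none. The most distant summit counted lay 8937 bp from its gene, Smarcc1, and the nearest not counted lay 10133 bp from Arid3c.

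Other subunits of the same complexes, from a list that holds no gene of the symbol rule, had a summit at 61 of 62 (98.4%, interval 91.3 to 99.96), against 70.5% of protein-coding genes. Only Brd7, a PBAF bromodomain gene, had none. The 62 genes had a median length of 29.9 kb, against 17.2 kb over all protein-coding genes. In the length quintile that holds this median, 80.5% of protein-coding genes had a summit and 25.4% a strong one. Strong summits were present at 21 of 62 (33.9%, interval 22.3 to 47.0), against 22.2% of protein-coding genes. By complex these were 10 of 18 SWI/SNF, 6 of 12 NuRD, 2 of 9 ISWI-partner and 3 of 17 INO80, SRCAP and TIP60 genes, and 0 of 6 further ATPase genes. The ISWI-partner and INO80, SRCAP and TIP60 counts (22.2% and 17.6%) were at or below that share. The medians of the strongest summit were 10.96, 10.6, 9.27, 7.08 and 5.57 in the same order. The share was highest for SWI/SNF in this list, whereas among the 38 genes that of SWI/SNF (8 of 12) was matched by Chd3 to Chd5 (2 of 3). Some strong summits of this list lay nearest to another gene. These were the strongest of Brd9 and Ss18l1 (SWI/SNF), Hdac1 and Mta1 (NuRD) and Ruvbl2.

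The strongest SWI/SNF partners were Bicral at 20.1, a subunit gene of the non-canonical BAF complex, Bcl7a at 18.2, and Dpf1, a PHD-finger gene of neuronal BAF, at 16.4. Among NuRD genes Mbd2, which encodes a reader of methylated CpG, had 27.3, and Mta1 and Mta3 had 22.3 and 19.9, the first at a summit nearer to Crip2. Of the ISWI partners Baz1a (ACF1) had 22.9, Baz2a 11.4 and Baz1b 9.95. Strong summits were thus at 2 of 9 ISWI partners, the same share as the 22.2% of all protein-coding genes. Those partners had a median length of 99.1 kb, and in the longest quintile 30.7% of protein-coding genes had a strong summit. The ISWI ATPase genes had 0 of 2, which is too few genes for a comparison. In the INO80, SRCAP and TIP60 list the leaders were Ruvbl2 at 13.7, at a summit nearer to Lhb, Mcrs1 at 12.4 and Yeats4 at 10.96. The further ATPase genes were led by Atrx at 6.59, with Hltf and Ercc6l at 5.61.

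**Figure D4:**
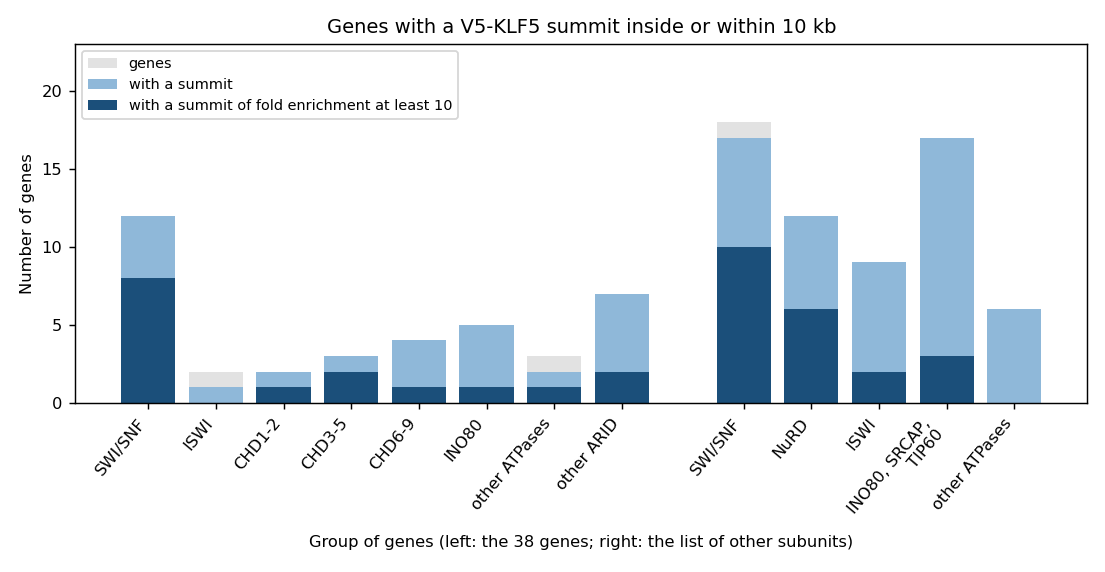
Number of genes (vertical axis, grey) in each group, of these the number with a V5-KLF5 summit (light blue) and with a summit of fold enrichment at least 10 (dark blue), drawn over each other; the 38 genes are on the left and the list of other subunits on the right. Strong summits were found at 8 of 12 and 10 of 18 SWI/SNF genes, and at 0 of 2 ISWI ATPase genes.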

How the data were processed

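ChIP-seq peak lists of 3 immunoprecipitates were used, and input libraries enter only as the authors' background. Per the file headers, the authors called peaks with MACS2 2.1.0.20140616 on single libraries with the matching input as control. Tags (51 bp) were lengthened to 250 bp, at most 1 tag was kept at a position, the bigger library was scaled down, and peaks passed a q-value of 0.05. Bowtie 0.12.8 and mm10 stand in the submitters' processing notes. How multiply mapping reads were handled was not given in the sources used here. The deposited values are the pileup signal at the summit, the −log10 p-value and q-value, and the fold enrichment ratio. They served to describe, rank or filter peaks within this list.

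Gene positions (1-based) and start sites came from RefSeq GRCm38.p6. Of the peaks, 45366 lay on assembled chromosomes, and 21883 protein-coding genes entered, in Python 3.11.15 with pandas 2.3.3 and scipy 1.17.1. Of symbols that match the rule, 3 non-coding genes were left out. The input background was recovered as (pileup + 1) / fold enrichment − 1. Shares carry exact Clopper-Pearson intervals, and pileups exact Poisson intervals, both at 95% and for counting error only. The summit assignment was tested on simulated data. The members and lists were chosen with earlier results of these data known. Every gene is named, with more detail for the 4 strongest of each family, for paralogues and for genes with no summit or a strongest summit nearest to another gene. Of the other subunits, the 3 strongest of each complex and those with none are named. The sequences are those of the 6 genes with the strongest start-proximal summits. Alternatives changed the window, the assignment, the threshold and the motif.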

Additional observations from a re-analysis of the deposited data

How the results depend on the processing

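No paired analysis was possible because each group is 1 library, and leaving out replicates could not be run. Of 88 alternative values, 69 were classed as near the main ones and 19 were not. That class was broad. It took in a fall from 36 to 28 genes with a summit, and a rise from 16 to 23 genes with a strong one. Genes with a summit numbered 30 of 38 in gene bodies (50.9% of protein-coding genes), 28 within 1 kb of a start (51.4%), 28 and 22 at a −log10 q of at least 10 and 20 (54.6% and 35.5%), and 38 within 50 kb (81.1%). For genes with no listed start, a summit within 1 kb of either end was counted, here and below. The threshold of 20 left 5 of 10 Arid genes, 1 of 5 Ino80 genes and 35 of 62 other subunits. Within 1 kb of a start, 5 of 10 Chd genes had a summit, with Chd1 counted by an end, near the 51.4% of protein-coding genes. Distinct summits numbered 89 (gene body only), 336 (50 kb), 32 (within 1 kb of a start), and 68 and 33 at a −log10 q of at least 10 and 20. Strong summits were at 9 genes (gene body only, 11.1% of protein-coding genes), at 6 (within 1 kb of a start, 9.10%), and at 3 with a fold enrichment of at least 15 (7.97%). At that threshold the share, 3 of 38, was at the level of all genes. The median strongest fold enrichment was 6.42 in gene bodies, 6.24 within 1 kb of a start, 13.9 within 50 kb and 12.3 at a −log10 q of at least 20, against 6.45, 6.10, 10.0 and 10.98 over all protein-coding genes. So it stood near that of all genes in gene bodies and at starts. By pileup the median was 45 against 36. The motif share was 25.7% with the stricter letters. The comparison with either gene end in place of starts was chosen after seeing the data and gave 31.0%.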
